A study of Drosophila melanogaster with 2 samples.

Results

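Dip2-eGFP had 253 peaks at single promoters in Drosophila melanogaster embryos, and most of these peaks lay upstream of the transcript start in A- and T-rich sequence. A single promoter is a transcript start whose upstream 1000 bp hold no oppositely oriented start of a different gene. A peak was counted here when its summit, the position of highest enrichment, lay within 500 bp of such a start as its nearest start. The 253 peaks are 27.8% of the 910 peaks on the 7 chromosome arms in the longer of the authors' lists made from both replicates. The remaining arm peaks comprised 186 at divergent promoters (20.4%) and 471 outside promoters (51.8%). The 253 peaks had 244 distinct nearest starts in 235 genes. Some peaks overlap, and with overlapping peaks joined the count was 243.

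The measurement was chromatin immunoprecipitation followed by sequencing (ChIP-seq), in which DNA bound by a protein is recovered with an antibody and sequenced. Whole embryos of the transgenic strain Dip2-GFP, aged 0 to 18 h, expressed an eGFP-tagged Dip2 that was recovered with an antibody against GFP. The labels give Dlip2 as the gene targeted by the insertion, and the 2 biological replicates form 1 group, so no genotype, treatment or age is compared. Whole embryos mix cell types, and no value here resolves them. ChIP peaks give no marker levels against which the whole-embryo label could be checked.

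A promoter is the sequence around a transcript start where RNA polymerase II and its cofactors assemble. Fly promoters are marked by short elements such as the TATA box and the Initiator, which lie at fixed positions at the start, and by sites of DREF, M1BP and GAGA factor farther upstream. Where a pair of genes is transcribed away from a shared upstream region, the promoter is called divergent. CTCF, BEAF-32 and Su(Hw) are insulator proteins, which bind at domain borders and at many promoters in fly chromatin.

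The sequences of 4 of the strongest single-promoter peaks with the CTCF core are shown because this short sequence was frequent in the strongest peaks. The core has 4 spellings, of which the first is AGAGGGC, the next AGATGGC, another AGGGGGC and the last AGGTGGC, on either strand, and its matches are in capitals. Each sequence is 101 bp centred on the summit, on the strand of the nearest gene, upstream of its start and outside annotated exons, from the RefSeq sequence of dm6. CG13689 is at chr2L:602463-602563 (plus strand), Mtpalpha at chr2L:9576802-9576902 (minus strand), Pgant4 at chr2L:3472377-3472477 (plus strand) and snRNA:U6:96Ac at chr3R:24557039-24557139 (plus strand).
CG13689: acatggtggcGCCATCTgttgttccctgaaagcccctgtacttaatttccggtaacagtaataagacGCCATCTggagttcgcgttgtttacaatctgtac
Mtpalpha: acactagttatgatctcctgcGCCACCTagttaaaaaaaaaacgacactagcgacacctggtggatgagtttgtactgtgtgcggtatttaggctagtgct
Pgant4: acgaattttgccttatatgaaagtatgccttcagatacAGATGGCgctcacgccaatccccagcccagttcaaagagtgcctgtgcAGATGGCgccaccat
snRNA:U6:96Ac: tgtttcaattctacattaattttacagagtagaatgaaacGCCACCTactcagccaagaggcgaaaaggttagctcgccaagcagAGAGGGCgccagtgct
The windows of CG13689, Pgant4 and snRNA:U6:96Ac hold 2 matches each and that of Mtpalpha holds 1.

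Strong peaks without the core were also found, and 3 of them are shown for contrast, with no capitals because no match was present. These are at lace (chr2L:15498887-15498987, plus strand), Spn28Db (chr2L:7890850-7890950, minus strand) and Trx2 (chr2L:9612757-9612857, plus strand). Each window does hold sequence 1 base away from a core spelling, which was not counted as a match. Examples are gacatct at lace, aggtgtc at Spn28Db and agatgtc at Trx2, and the windows at lace and Spn28Db hold others. Such near matches were not counted in any group, so whether they are more frequent here than elsewhere was not tested.
lace: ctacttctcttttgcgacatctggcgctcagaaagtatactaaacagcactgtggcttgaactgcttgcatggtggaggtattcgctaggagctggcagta
Spn28Db: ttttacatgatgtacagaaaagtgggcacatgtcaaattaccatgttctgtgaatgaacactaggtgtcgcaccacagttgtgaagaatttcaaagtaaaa
Trx2: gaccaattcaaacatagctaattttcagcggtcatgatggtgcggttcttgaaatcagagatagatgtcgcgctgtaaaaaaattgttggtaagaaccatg
The window at htk (chrX:18843507-18843607, plus strand) is shown because it holds TATCGATA, the DRE sequence bound by DREF and BEAF-32, which is in capitals. It also holds the CTCF core as gccatct, 10 bp from the summit, left here in lower case. It was the 1 peak with this sequence that met the conditions for printing.
htk: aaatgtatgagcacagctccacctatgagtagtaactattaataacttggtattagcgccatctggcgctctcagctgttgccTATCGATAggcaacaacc
The weakest single-promoter peak that met those conditions was at CG17778 (chrX:494156-494256, plus strand), and its window held neither sequence.
CG17778: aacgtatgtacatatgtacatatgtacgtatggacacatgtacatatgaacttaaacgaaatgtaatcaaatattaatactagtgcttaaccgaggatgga

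Summits at single promoters lay upstream of the start. Of the 253 summits, 224 were upstream (88.5%, 95% Wilson interval 84.0% to 91.9%), against 5749 of 13147 candidates at single promoters (43.7%, 42.9% to 44.6%). Candidates are regions in the authors' ranked list that overlap no peak past their reproducibility threshold. The odds ratio was 9.94 (Fisher's exact test, two-sided, p = 2.44e-49), and intervals here cover the number of peaks, not read counting. The median summit was 204 bp upstream at single promoters, as an offset of -204 bp with an interquartile range of -287 to -115 bp. Candidates had a median offset of 57 bp, on the downstream side. At divergent promoters the median offset was -97.5 bp and 77.4% of summits were upstream. A divergent promoter has a start on each side, so its summits are bounded by the definition and that difference was not tested.

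**Figure D1:**
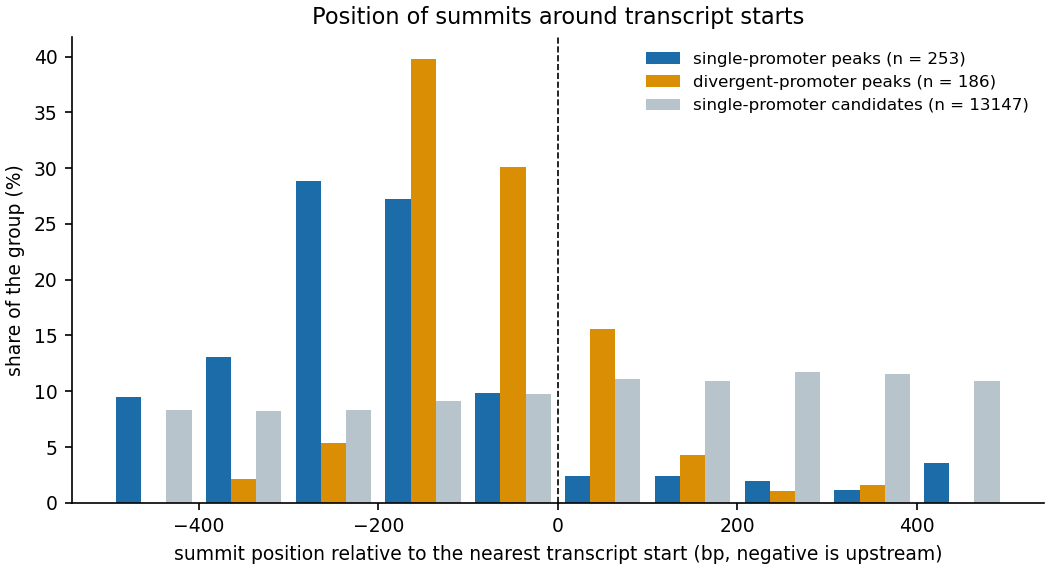
Share of each group (y axis, %) by the position of the summit relative to the nearest transcript start (x axis, bins of 100 bp, negative is upstream). Single-promoter peaks (blue) are concentrated at -300 to -100 bp, divergent-promoter peaks (orange) at -200 to 0 bp, and candidates (grey) are spread evenly.

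The bin from -300 to -200 bp held 73 single-promoter summits (28.9%) and that from -200 to -100 bp held 69 (27.3%). In the bin from -100 bp to the start there were 25 (9.88%), against 56 of 186 at divergent promoters (30.1%). Thus 56.9% of the single-promoter summits were 100 to 300 bp upstream. Of the 253 summits, 117 lay in no annotated gene, 84 in the body of the nearest start's own gene and no other, and 52 in another gene, and 44 were in an annotated exon. Of the 244 starts, 137 belonged to genes with several starts. Starts downstream of their gene's first start made up 85 of 244 (34.8%), against 24.3% of the 8936 starts of candidates. That difference was not tested.

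The rule's limits cut through a continuous range of distances. In the last 100 bp inside the limit of 500 bp there were 33 single-promoter peaks, and in the next 100 bp outside it there were 34 peaks. An oppositely oriented start lay beyond 1000 bp but within 2000 bp upstream at 44 of the single-promoter peaks. Another gene's start lay within 500 bp of the summit at 16.

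Signal, the authors' value for the height of a peak, ran from 2.38 to 3018 at single promoters with a median of 107. The median was 96.9 at divergent promoters, 94.6 outside promoters and 17.1 among candidates at single promoters. Signal above the median of the arm peaks (98.2) was found at 143 of 253 single promoters (56.5%) and 87 of 186 divergent promoters (46.8%), which did not pass the test (odds ratio 1.48, Fisher's exact p = 0.0530). It passed without the peaks that lie under the candidates' median signal (p = 0.0400, Fisher's exact test). There were 6 such peaks at single promoters, and all 6 overlapped another peak of the list.

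Both replicates held 60 of the 64 strongest single-promoter peaks. A thresholded peak of each replicate's own list overlapped 112 of the 253 (44.3%), against 79 of 186 at divergent promoters (42.5%, odds ratio 1.08, Fisher's exact p = 0.770). A thresholded peak overlapped in replicate 2 alone at 92, in replicate 1 alone at 10 and in neither at 39. Candidates of replicate 2 overlapped all 253 and those of replicate 1 overlapped 219. The replicate 1 signals of those 219 ran from 7.15 to 1189 with a median of 48.6, and replicate 2 signals of the 253 ran from 14.0 to 1832 with a median of 65.7. The shorter list of the authors held 171 of the 253, and 211 had the highest possible reproducibility score of 1000.

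**Figure D2:**
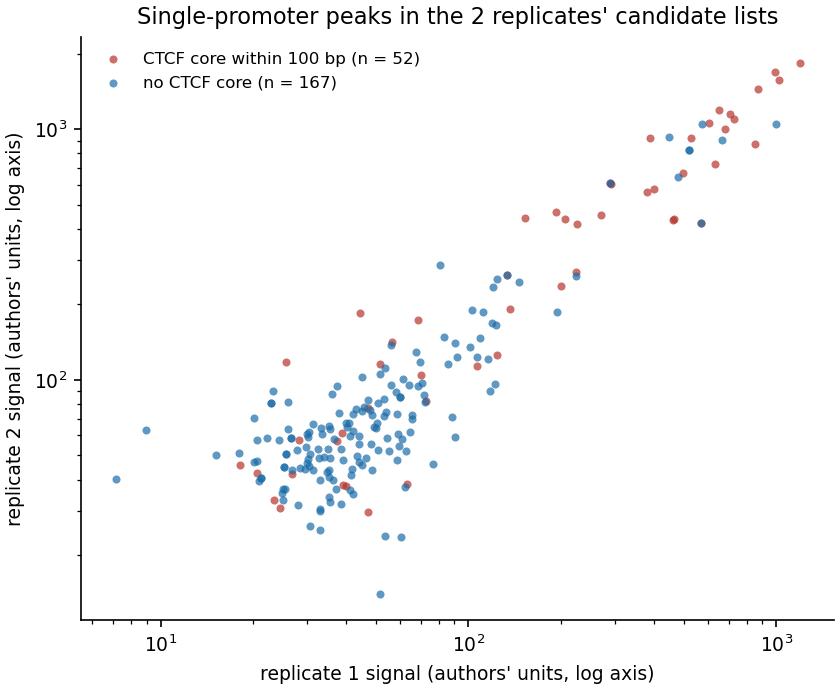
Signal of the overlapping candidate in replicate 1 (x axis) and replicate 2 (y axis, both log axes, authors' units) for the 219 single-promoter peaks with a candidate in both, with the CTCF core (red) or without it (blue). The highest signals (1189 in replicate 1, 1832 in replicate 2) belong to the same peak, at CG7785. Each of the 25 strongest peaks overlapped thresholded peaks of both replicates. Peaks without a replicate 1 candidate are not shown, among them galectin, CG31145 and gish, which were among the 64 strongest. The list had already passed the authors' reproducibility threshold, and some overlapping peaks, such as those at Trx2, share their replicate values. No correlation was computed.

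The strongest single-promoter peaks were near genes of varied function. CG7785 led with a signal of 3018, with 1189 in replicate 1 and 1832 in replicate 2, and its summit was 174 bp upstream of the start. CG13689 followed with 2666 (991 in replicate 1 and 1689 in replicate 2). Mtpalpha, which encodes a subunit of the mitochondrial enzyme complex of fatty acid oxidation, had 2574 (1020 in replicate 1 and 1567 in replicate 2). All 3 had the CTCF core and a score of 1000 in each replicate.

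Among the other peaks of the 25 strongest, several were at genes for enzymes and a transporter. Pgant4, a transferase that starts mucin-type O-glycosylation, had a signal of 2294 (869 in replicate 1 and 1443 in replicate 2). At lace, which encodes a subunit of serine palmitoyltransferase, the signal was 2036 (995 in replicate 1 and 1052 in replicate 2), without the core. Pdi, a protein disulfide isomerase, had 1811 (728 in replicate 1 and 1094 in replicate 2), and Alg3, a mannosyltransferase of N-glycosylation, had 1376 (449 in replicate 1 and 931 in replicate 2). Both Pdi and Alg3 held TATCGATA, as did Nhe3, a sodium/proton exchanger (1444, with 528 in replicate 1 and 922 in replicate 2).

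Further genes among the 25 strongest peaks were of mixed kinds. The nuclear export factor family gene nxf4 had a signal of 1725 (855 in replicate 1 and 875 in replicate 2). Lamtor2, a subunit of the Ragulator complex at lysosomes, had 1309 (390 in replicate 1 and 924 in replicate 2), and Dna2, a nuclease and helicase of DNA replication, had 1005 (570 in replicate 1 and 423 in replicate 2). The serpin gene Spn28Db had 1573 (667 in replicate 1 and 905 in replicate 2) and the thioredoxin gene Trx2 had 1345 (519 in replicate 1 and 829 in replicate 2). Signals of the phosphatase gene Ptpmeg2, CG9344, CG11444, CG14903, CG14321 and htk ran from 901 at htk to 1679 at CG9344. Of the 25 strongest peaks, 25 overlapped thresholded peaks of both replicates, 23 were upstream of the start and 19 held the CTCF core.

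The weakest 3 single-promoter peaks each shared sequence with another peak of the list. CG3880 had a signal of 2.38, CG17778 2.45 and pigs 2.91. The overlapping candidates had signals of 30.6 in replicate 1 and 26.1 in replicate 2 at CG3880, and of 48.0 in replicate 1 and 75.9 in replicate 2 at CG17778. In all, 21 of the 253 overlapped another peak of the list.

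Non-coding RNA genes had 24 of the single-promoter peaks, and 4 RNA classes were among the strongest. The long non-coding RNA gene lncRNA:CR44831 had a signal of 1859 (709 in replicate 1 and 1149 in replicate 2). The spliceosomal U6 gene snRNA:U6:96Ac had 1826 (653 in replicate 1 and 1194 in replicate 2), and the valine transfer RNA gene tRNA:Val-CAC-1-1 had 1646 (605 in replicate 1 and 1054 in replicate 2). The pseudouridine guide snoRNA:Psi28S-3342 had 1163 (496 in replicate 1 and 668 in replicate 2). These 4 sites had the CTCF core. Further long non-coding genes were lncRNA:CR43289 (917), lncRNA:CR42657 (663) and lncRNA:CR43838 (424), and mir-34, a microRNA gene, had 98.9 (37.5 in replicate 1 and 56.9 in replicate 2). Starts are the first bases of annotated transcripts, and whether those of short RNAs are starts of transcription was not tested.

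Protein-coding starts made up 229 of the 253 (90.5%), against 175 of 186 at divergent promoters (94.1%), which did not pass the test (odds ratio 0.600, Fisher's exact p = 0.213). Of all 7911 genes nearest to a candidate or peak at a single promoter, 235 had such a peak (2.97%), and of 6150 protein-coding genes 213 did (3.46%). Among the other classes, 19 of 1511 genes annotated as other non-coding RNA did, a class that includes long non-coding, antisense and miRNA genes (1 of 78 miRNA genes, mir-34). So did 1 of 11 snRNA, 1 of 69 tRNA and 1 of 71 snoRNA genes, and 0 of 98 pseudogenes.

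Genes of known groups carried single-promoter peaks at a share near that of all protein-coding genes. Over 21 lists, 11 of 294 protein-coding genes nearest to a candidate or peak had a peak, beside the 3.46% over all protein-coding genes. The 12 lists with none held 128 such genes and were those of mitochondrial ribosomal proteins (0 of 9), translation initiation factors (0 of 13), proteasome subunits (0 of 13), respiratory chain subunits (0 of 21), general transcription and Mediator (0 of 13), nucleoporins (0 of 2), tubulins and motors (0 of 7), Hox genes (0 of 6), ecdysone response (0 of 11), muscle (0 of 15), midgut, fat body and epidermis (0 of 13) and mitochondrial import (0 of 5). These lists held 2 to 21 such genes each, and nothing is read from a count of 0 in them.

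Among regulators of chromatin and development, 7 genes of the lists had a peak. In the segmentation list 1 of 25 had one, pan, the TCF protein of Wingless signalling, with a signal of 967 (400 in replicate 1 and 576 in replicate 2). In the Polycomb and Trithorax list 1 of 6 had one, ph-p, a Polyhomeotic protein, with peaks of 378 (194 in replicate 1 and 187 in replicate 2) and 284 (103 in replicate 1 and 189 in replicate 2). In the neural list 1 of 18 had one, elav, an RNA-binding protein of neurons, with 199 (56.3 in replicate 1 and 141 in replicate 2). Insulator genes with a peak were 2 of 10, row (71.5) and Trl, which encodes GAGA factor (62.4), and the MADF-BESS list had 2 of 5, CG5953 (108) and brwl (77.6). Thresholded peaks of both replicates overlapped the pan, ph-p and elav peaks, and those of neither overlapped the row and Trl peaks.

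In the other lists, Hsp27, a small heat shock protein, had a signal of 171 (70.0 in replicate 1 and 104 in replicate 2), and it was 1 of 9 heat shock and chaperone genes. GstE13, a glutathione transferase, had 252 (109 in replicate 1 and 147 in replicate 2) and was 1 of 60 in its list. RpS4, a ribosomal protein of the small subunit, had 116 (50.3 in replicate 1 and 64.2 in replicate 2) and was 1 of 21. Dp, the partner of E2F in cell cycle control, had 99.3 (38.8 in replicate 1 and 61.1 in replicate 2) and was 1 of 12. These 4 genes were each the 1 bound member of their list.

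There were 14 genes with more than 1 single-promoter peak, and they held 32 of the 253. In 8 of these genes the peaks had the same nearest start, and in 6 they had different starts. Ptpmeg2 and dnc, a phosphodiesterase of cAMP signalling, had 4 each. At Ptpmeg2 the signals were 1119, 96.4, 95.8 and 66.4, with replicate 2 candidates of 643, 53.0, 53.4 and 65.3. Replicate 1 candidates were 478 at the 1119 peak and 38.6 at the 96.4 peak, and none overlapped the 95.8 and 66.4 peaks. No thresholded peak of either replicate overlapped the 95.8 peak. At dnc the signals were 131, 78.7, 76.1 and 3.58, with replicate 2 candidates of 74.7, 53.1, 50.7 and 50.7. No replicate 1 candidate overlapped the 131 peak, and those at the others were 35.0, 25.5 and 25.5. The last pair at dnc overlap, so their replicate values are shared. Trx2, Dna2 and CG9044 had a pair of summits within the same interval, with signals of 1345 and 586 at Trx2, 1005 and 121 at Dna2 and 897 and 90.1 at CG9044.

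The CTCF core was found in 54 of 253 windows of 100 bp either side of a single-promoter summit (21.3%, 16.7% to 26.8%). It was found in 24 of 186 windows at divergent promoters (12.9%, 8.83% to 18.5%), in 156 of 471 outside promoters (33.1%, 29.0% to 37.5%) and in 1126 of 13147 candidates (8.56%, 8.10% to 9.06%). Single-promoter peaks held it more often than candidates (odds ratio 2.90, Fisher's exact adjusted p = 5.11e-09) and less often than peaks outside promoters (odds ratio 0.548, Fisher's exact adjusted p = 0.0186). The difference from divergent promoters did not pass (odds ratio 1.83, Fisher's exact adjusted p = 0.0892). Adjustment is over 23 motifs for each comparison by the Benjamini-Hochberg method. In the list of replicate 1, which leaves replicate 2 out, the difference from peaks outside promoters did not pass (odds ratio 0.526, Fisher's exact adjusted p = 0.0795).

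Matches lay close to the summit. Among windows of 250 bp either side that held the core, the nearest match centre was within 25 bp of the summit in 29 of 78 single-promoter peaks (37.2%, 27.3% to 48.3%) and in 306 of 2521 candidates (12.1%, 10.9% to 13.5%). The odds ratio was 4.28 (Fisher's exact p = 2.69e-08). Median distances were 37.5 bp at single-promoter peaks and 111 bp at candidates.

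Peaks with the core had the higher signals. The 54 with it had a median signal of 461 (56.7 to 3018) and the 199 without it had 96.9 (2.38 to 2036). The strongest signal bin of 64 held it in 36 windows (56.3%, 44.1% to 67.7%), and the next bins of 63 held it in 9.52%, 7.94% and 11.1% of windows. TATAAA did not follow this order, at 40.6%, 42.9%, 31.7% and 38.1% in the same order of bins. Peaks past the threshold in both replicates overlapped 93.8% of the 64 strongest, then 63.5% and 19.0%, and 0 of the 63 weakest. The bins are a description of 1 list, with no test between them.

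**Figure D3:**
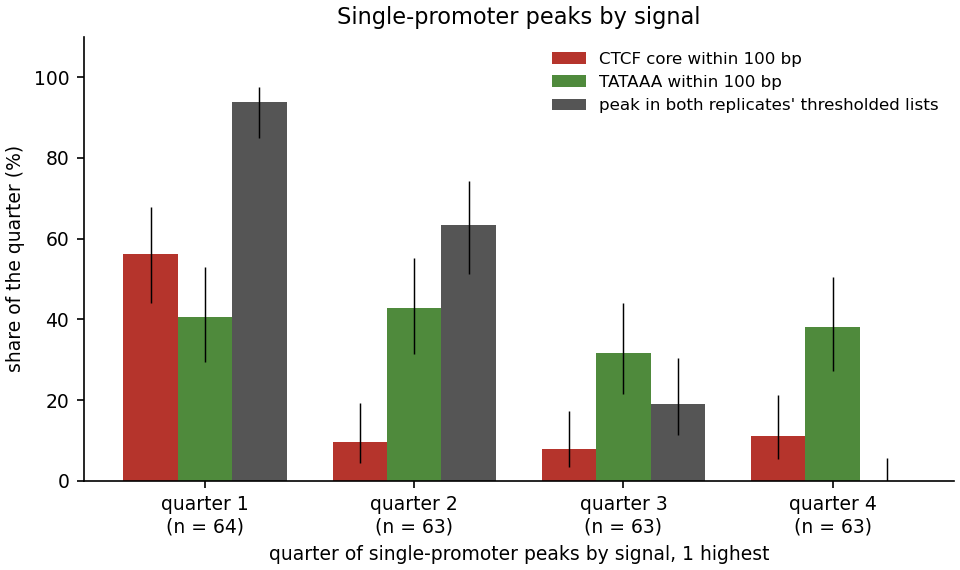
Share of single-promoter peaks (y axis, %) with the CTCF core, with TATAAA and with thresholded peaks in both replicates, in bins of equal size by signal from the highest (left) to the lowest, with 95% Wilson intervals. The core is at 56.3% in the highest bin and at 7.94% to 11.1% in the others.

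The sequence around summits was rich in A and T. Median GC content within 100 bp of the summit was 35.3% at single promoters and 33.8% at divergent promoters, 38.3% outside promoters and 47.3% at candidates. In the flanks 300 to 500 bp from the single-promoter summits it was 42.8%. Windows under 36.3% GC, the median of the arm peaks, were 140 of 253 at single promoters (55.3%) and 115 of 186 at divergent promoters (61.8%), which did not pass (odds ratio 0.765, Fisher's exact p = 0.203). With replicate 2's own list, which leaves replicate 1 out, the difference passed (52.6% against 64.9%, Fisher's exact p = 0.0272). In single-promoter peaks the mean GC of the 20 bp just before the summit was 32.7% against 47.0% in candidates.

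**Figure D4:**
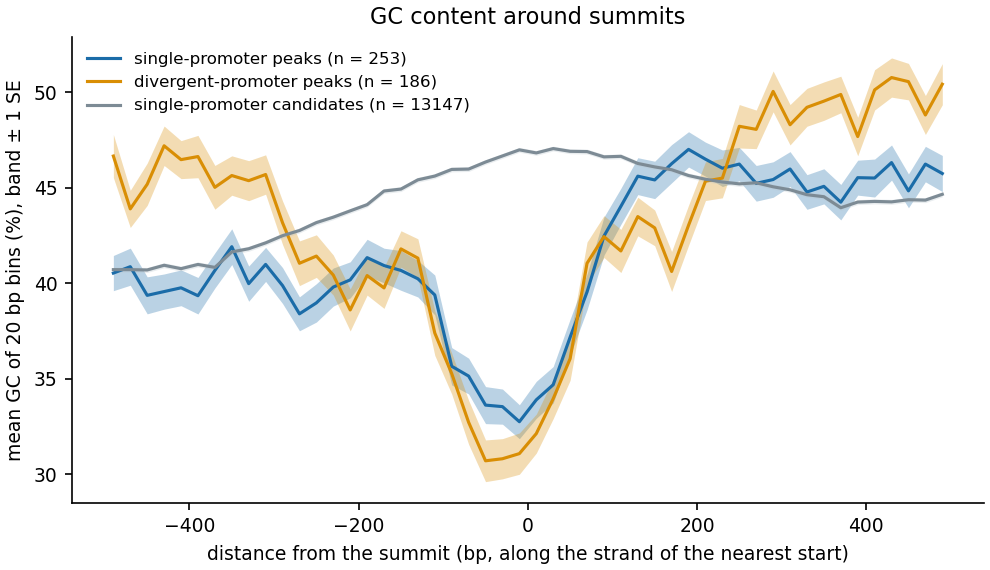
Mean GC content (y axis, %) in bins of 20 bp by distance from the summit (x axis, along the strand of the nearest start), with a band of 1 SE, for single-promoter peaks, divergent-promoter peaks and candidates. In the 20 bp just before the summit, mean GC is 32.7% at single-promoter peaks, 31.1% at divergent-promoter peaks and 47.0% at candidates.

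TATAAA, the TATA box sequence, was found in 97 of 253 single-promoter windows (38.3%) and 2067 of 13147 candidate windows (15.7%), an odds ratio of 3.33 (Fisher's exact adjusted p = 2.11e-16). The share was 40.9% at divergent promoters and did not differ past the threshold (Fisher's exact adjusted p = 0.795). Of the 97 windows, 25 reached the span 45 to 15 bp upstream of the nearest start, where a TATA box lies, and 4 of them had a match there. In 40 of the 97 a match was within 25 bp of the summit. A TATA box at that position was present at 10 of 244 single-promoter starts (4.10%), against 775 of 8936 candidate starts (8.67%, odds ratio 0.450, Fisher's exact adjusted p = 0.0178 over 8 start elements). It did not pass in the list of replicate 1, which leaves replicate 2 out (odds ratio 0.538, adjusted exact p = 0.218), nor with promoters of 250 bp (adjusted exact p = 0.0511).

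Motifs of A- and T-rich sequence and the G- and C-rich GGCGCC or GGCGCT were frequent as well. Against candidates, 7 of the 23 motifs were more frequent at single promoters (30.4%) and none was less frequent (0%), also at an unadjusted p under 0.05 (9 more and 0 less frequent). Besides the CTCF core and TATAAA these were TTTATG or TTTATT of Caudal (58.9% against 35.0%, odds ratio 2.65), TAATTA of homeodomain proteins (16.6% against 8.44%, odds ratio 2.16), a run of AAAAAAAA (14.6% against 7.94%, odds ratio 1.99), TGCATA of Su(Hw) (14.6% against 9.80%, odds ratio 1.58) and GGCGCC or GGCGCT of Brinker (21.7% against 12.8%, odds ratio 1.89). TGCATA did not pass against candidates upstream of the start (Fisher's exact adjusted p = 0.313), in either replicate's own list (Fisher's exact adjusted p = 0.126 and 0.0805) or in 9 further alternatives. The run of A did not pass in either replicate's own list (Fisher's exact adjusted p = 0.126 and 0.329), among peaks above the list's median signal (0.224) or with promoters of 250 bp (0.263). TAATTA did not pass with windows of 50 bp (Fisher's exact adjusted p = 0.0976). The CTCF core and TATAAA were also more frequent when set against upstream candidates alone (odds ratios 3.22 and 2.35). GC content differs between the same windows, and its part in these differences was not tested.

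Of all 2080 6-mers, 308 were more frequent at single promoters than at candidates (14.8%) and 426 were less frequent (20.5%). The most significant were AAATAT (57.3% against 22.3%) and ATTTTA (51.4% against 19.7%). Among those less frequent, the most significant was GGAGCA (1.98% against 14.1%). Against divergent promoters none of the 2080 passed in either direction (0% more frequent and 0% less frequent), with 60 higher and 61 lower at an unadjusted Fisher's exact p under 0.05. The lowest adjusted p there was 0.0973 (Fisher's exact test), for TATCGA, the inner part of the DRE sequence (10.3% against 25.3%).

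Single and divergent promoters differed in 3 of the 23 motifs. The BEAF-32 unit CGATA was in 68 of 253 single-promoter windows (26.9%) and 79 of 186 divergent-promoter windows (42.5%, odds ratio 0.498, Fisher's exact adjusted p = 0.00837). Ohler motif 7, a core promoter element, was in 7 of 253 (2.77%) and 27 of 186 (14.5%, odds ratio 0.168, Fisher's exact adjusted p = 1.50e-04). GGCGCC or GGCGCT of Brinker was in 55 of 253 (21.7%) and 19 of 186 (10.2%, odds ratio 2.44, Fisher's exact adjusted p = 0.0139), and 33 of the 55 windows also held the CTCF core. These were 1 motif more frequent (4.35%) and 2 less frequent (8.7%) of 23. GAGAG of GAGA factor was in 23.7% and 14.5%, and TATCGATA in 1.98% and 6.99%, which did not pass (Fisher's exact adjusted p = 0.0892 and 0.0751). The calls did not all hold in each replicate's own list. CGATA did not pass in either (Fisher's exact adjusted p = 0.107 and 0.251), Ohler motif 7 did not in the list without replicate 2 (0.0528) and GGCGCC or GGCGCT did not in that without replicate 1 (0.119), while GAGAG passed in that list (0.0245). Windows reach 100 bp from the summit, and the median offset was -204 bp at single and -97.5 bp at divergent promoters. Fewer single-promoter windows thus reached the start, and the part of this in the differences was not tested. Ohler motif 7 did not pass with windows of 50 bp (Fisher's exact adjusted p = 0.642) and passed with windows of 250 bp (1.59e-09). Peaks outside promoters differed by the CTCF core alone (0% more frequent and 4.35% less frequent of 23, with 1 more and 1 less frequent at an unadjusted exact p under 0.05).

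**Figure D5:**
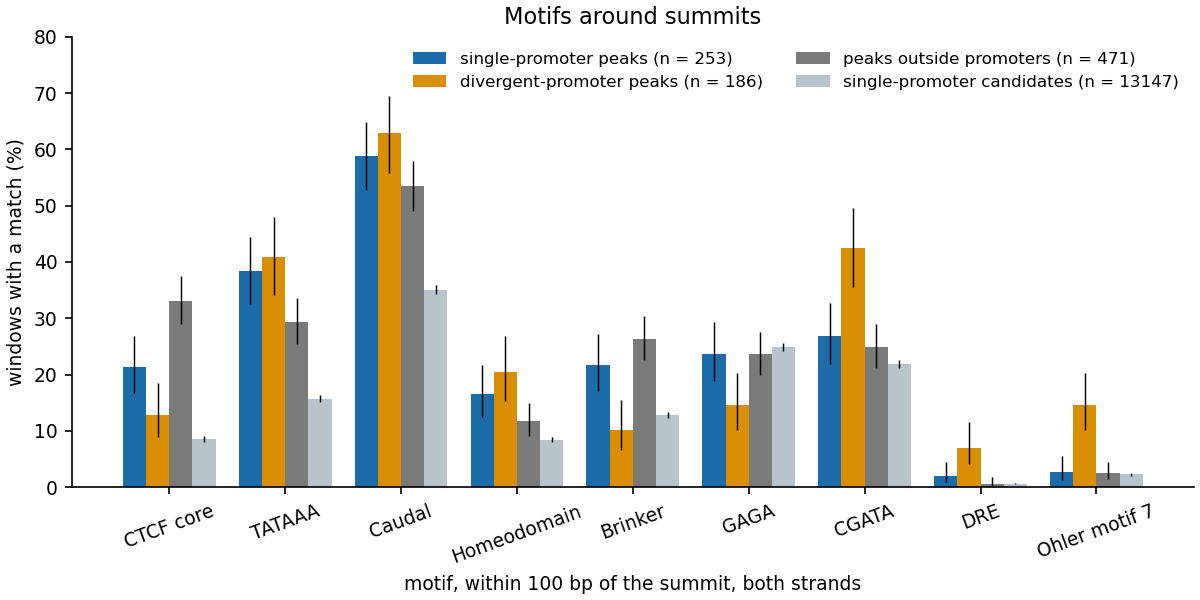
Share of windows with a match (y axis, %, with 95% Wilson intervals) for 9 motifs (x axis) in single-promoter peaks, divergent-promoter peaks, peaks outside promoters and candidates. The CTCF core is at 21.3% in single-promoter peaks and at 8.56% in candidates, and CGATA and Ohler motif 7 are higher at divergent promoters than at single promoters.

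At the starts themselves, some elements other than the TATA box were more frequent than at candidate starts. GAGAG lay from 150 bp upstream to 50 bp downstream at 118 of 244 single-promoter starts (48.4%) and at 2463 of 8936 candidate starts (27.6%, odds ratio 2.46, Fisher's exact adjusted p = 1.10e-10). Within 100 bp of the summit, GAGAG did not differ past the threshold. It was in 23.7% of single-promoter windows and 24.9% of candidate windows (odds ratio 0.938, Fisher's exact adjusted p = 0.746). The Initiator, in the spellings TCAGTC and, besides it, TCAGTT, then also TCATTC and lastly TCATTT, from 7 bp upstream to 3 bp downstream, was at 50 (20.5%) against 12.6% (odds ratio 1.79, Fisher's exact adjusted p = 0.00246). Ohler motif 1, bound by M1BP, was at 9 (3.69%) against 1.20% (odds ratio 3.16, Fisher's exact adjusted p = 0.00982), and the E-box CAGCTG at 42 (17.2%) against 11.5% (odds ratio 1.59, Fisher's exact adjusted p = 0.0178). TATCGATA (3.28% against 2.44%), Ohler motif 6 (1.23% against 0.504%) and Ohler motif 7 (2.87% against 3.50%) did not pass. The Initiator did not pass with promoters of 250 bp (odds ratio 1.39, Fisher's exact adjusted p = 0.161), nor CAGCTG with promoters of 1000 bp (odds ratio 1.41, Fisher's exact adjusted p = 0.0634). Expression of the genes was not analysed here.

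TATCGATA within 100 bp of the summit was in 5 of 253 single-promoter windows (1.98%, 0.847% to 4.54%) and 80 of 13147 candidate windows (0.609%, 0.489% to 0.757%), which did not pass (odds ratio 3.29, Fisher's exact adjusted p = 0.0641). It passed in the lists of both single replicates (Fisher's exact adjusted p = 0.00759 without replicate 2 and 0.00454 without replicate 1). Against upstream candidates alone the odds ratio was 1.98 (Fisher's exact adjusted p = 0.313). Of these 5 windows, 4 were among the 64 strongest.

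The X chromosome held 63 of the 253 single-promoter peaks (24.9%, 19.97% to 30.6%), against 20 of 186 divergent-promoter peaks (10.8%, 7.07% to 16.0%), with an odds ratio of 2.75 (Fisher's exact p = 0.000190). Of the candidates at single promoters, 16.2% were on X (odds ratio 1.71, Fisher's exact p = 0.000558), and of those at divergent promoters 17.2%. These were 2 tests chosen after the counts by arm were seen, and adjusted over both, p was 0.000380 and 0.000558 (Fisher's exact). That adjustment does not cover the choice of X among the 7 arms. Peaks of the same gene were counted separately in both tests, and Ptpmeg2 and dnc, with 4 peaks each, are on X. Genes with 2 peaks lay on X and on other arms. On X, 59 of 1539 starts with a candidate or peak had a single-promoter peak (3.83%), against 3.15% on 2L, 2.46% on 3R, 2.21% on 2R and 1.88% on 3L. With promoters of 250 bp the difference from candidates did not pass (19.9% against 16.6%, Fisher's exact p = 0.312).

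Upstream neighbours on the same strand did not differ past the threshold. The 3' end of another gene on the same strand lay within 1000 bp upstream of 71 of 244 single-promoter starts (29.1%, 23.8% to 35.1%). It did so for 2579 of 8936 candidate starts (28.9%, 27.9% to 29.8%, odds ratio 1.01, Fisher's exact p = 0.943). The interval of the first share leaves room for a difference of several points in either direction.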

How the data were processed

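The submitters deposited 4 thresholded peak lists for assembly dm6, per the deposited text, each with a longer ranked list. The lists of each replicate came from its own alignments, and the other lists from both replicates, and they share 1 input, not analysed here. The aligner, the peak caller and its settings were not stated there. Each peak's signal is the authors' deposited value, of unstated scaling, and was compared within a list only. The authors' deposited score is the scaled irreproducible discovery rate score, at least 830 in the list used (973 peaks). In the ranked lists, 8 columns of signal for the inputs of each list were not used. Read counts were not used here, so depth is unknown.

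Summits were placed against Ensembl release 115 starts, transposable elements excluded. Motifs (23 in windows, 8 at starts) were sought on both strands of the RefSeq dm6 sequence, except the TATA box and the Initiator at starts, sought on the gene's strand only. Candidates were all 13147 at single promoters that overlap no thresholded peak by 1 bp. Shares were compared by two-sided Fisher's exact tests, Benjamini-Hochberg within each family, in Python 3.11.15 with scipy 1.17.1, tested on simulated data. Members, motifs and gene lists were chosen with earlier results of these data known. Named genes are those of the 25 strongest peaks, of bound list and RNA class members (up to 4 each) and of the 3 weakest peaks. Replicate values are the highest signal among overlapping candidates in that replicate's list. Peaks, not samples, are the units of the tests, and peaks of the same gene are not independent. CG9044 and the repeated sites of Ptpmeg2 and dnc were named because they had several peaks. The alternatives are listed in the closing section.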

Additional observations from a re-analysis of the deposited data

How the results depend on the processing

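Each result was recomputed with 1 choice changed at a time. The list of each replicate, the authors' shorter list, peaks above the list's median signal, promoter distances of 250 and 1000 bp, divergent distances of 500 and 2000 bp, protein-coding starts, joined peaks and windows of 50 and 250 bp were used. Alternatives added after seeing the data left out peaks under the candidates' median signal or kept candidates upstream of the start. Over 33 results and 415 alternatives, 332 kept their direction and their side of the threshold, and 39 no longer passed, 25 newly passed, 11 counts moved and 8 reversed direction.

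The number of single-promoter peaks was 120 to 232 with 1 replicate left out, 143 above the median signal and 146 with promoters of 250 bp. The number of motifs that differed from divergent promoters (3) was 1 to 2 with 1 replicate left out, 0 above the median signal, 6 with promoters of 1000 bp, 1 with a divergent distance of 2000 bp, 0 with windows of 50 bp and 6 with windows of 250 bp. Against candidates (7) it was 11 with a divergent distance of 500 bp and 11 with windows of 250 bp.

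Odds ratios follow. For the CTCF core, that against divergent promoters became 1.85 and passed with promoters of 1000 bp, and that against peaks outside promoters was 0.522 to 0.526 with 1 replicate left out. TATAAA against divergent promoters, not past the threshold in any of these, was 0.723 to 1.13 with 1 replicate left out, 1.09 with promoters of 250 bp and 1.10 with windows of 50 bp. TATCGATA against candidates passed with 4.72 to 7.98 with 1 replicate left out, 4.59 in the shorter list, 4.70 above the median signal, 3.001 with a divergent distance of 500 bp, 4.23 with protein-coding starts, 5.85 with windows of 50 bp and 4.70 with windows of 250 bp, and did not pass at 1.98 against upstream candidates. High signal against divergent promoters passed with promoters of 250 bp (1.64), a divergent distance of 2000 bp (1.77) and weak peaks left out (1.504). Overlap with both replicates reversed to 0.695 above the median signal. Low GC was 0.600 to 0.625 with 1 replicate left out, past the threshold without replicate 1 and not without replicate 2. It passed at 0.664 with promoters of 1000 bp, 0.578 with a divergent distance of 500 bp and 0.648 with protein-coding starts. The TATA box was 0.300 to 0.538 with 1 replicate left out and did not pass above the median signal (0.469) or with promoters of 250 bp (0.435) and 1000 bp (0.633). The protein-coding share passed with promoters of 1000 bp (0.488). The upstream neighbour was 0.936 to 1.40 with 1 replicate left out, 1.49 and past the threshold with promoters of 250 bp, 0.798 with promoters of 1000 bp, 0.945 with a divergent distance of 500 bp and 0.924 with protein-coding starts. The cause of these changes was not tested.

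High signal has no value above the median signal, overlap with both replicates none in a single replicate's list, and the protein-coding share none with protein-coding starts. No paired analysis was possible because the samples form 1 group. Depth is unknown, and no interval here covers it.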
